A study of Mus musculus with 6 samples.

Results

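Heme is made by a chain of enzymes that starts and ends in the mitochondrion, and the iron placed in it enters the cell mostly through the transferrin receptor. The 9 genes described here are Alas1, Alas2, Alad, Uros, Urod, Cpox, Ppox and Fech, which encode enzymes of this chain, and Tfrc, which encodes the receptor. They were taken by symbol from the 55487 genes left after identical entries of the deposited table were merged, and all 9 were among the 18766 genes whose mean reached the level set for testing, 3 on the scale given below.

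The 6 libraries held total RNA of cKit+ cells, the fraction of mouse bone marrow with stem cells and early progenitors. A lentivirus made these cells overexpress MLLT3 WT (3 libraries, WT) or MLLT3 K63E K67E (3 libraries, DM), after which they were sorted. MLLT3, also called AF9, is a subunit of complexes that release paused RNA polymerase. In both groups, the cells grew for 8 days in methylcellulose with 200 nM 4-hydroxytamoxifen, which serves to delete the endogenous Mllt3 gene, with mFlt3L at 10 ng/mL, with hEPO, hTPO, mIL-3, mIL-11, mIL-6, mGMCSF and mSCF at 20 ng/mL each and with gentamycin at 50 µg/mL. The age and strain of the mice and the promoter of the vector are not given in the sources used here, nor is it said whether replicates came from separate animals, so p-values measure the spread between these 6 libraries, which may be technical. Values were rlog values, a regularized log2 transform that draws weakly counted genes to their own mean and so makes their changes smaller than they were. Without counts the depth is unknown. Mllt3 ran from 12.44 to 12.87 in WT and from 11.99 to 12.44 in DM, values that do not separate the vector's transcript from the endogenous one and so do not check the deletion. Kit was at 14.58, 14.32 and 14.29 in WT and at 14.9, 14.3 and 14.59 in DM. It is also on the list of mast cell and basophil markers counted further on. The means of that list over the 6 libraries ran from 12.45 (Hdc) to 17.86 (Cpa3), so Kit alone does not tell progenitors from mast cells.

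The first step of the chain joins glycine and succinyl-CoA and sets its pace. It has a pair of enzymes from separate genes: ALAS1 in all cells, whose gene heme itself holds down, and ALAS2 in red cell precursors, whose gene is a known target of GATA1. Iron enters the control through iron-responsive elements, short hairpins in messenger RNA that iron regulatory proteins bind when iron is scarce. In a 5′ UTR such a hairpin blocks translation, and in a 3′ UTR it protects the message from decay, so that scarcity of iron lowers the making of ALAS2 and ferritin and raises transferrin receptor.

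These hairpins are shown because they set 2 of the 9 genes apart from the others by sequence. The search was for the loop CAGTGN between 5 paired bases on each side (G-T pairs allowed), with an unpaired C just before them, on the sense strand of the GENCODE M21 protein-coding transcripts of GRCm38. Among the 9 genes, Alas2 and Tfrc had a match in a UTR, and over all 21877 genes searched 0.731% had one. Alas2 had 1 in its 5′ UTR and Tfrc had 4 in its 3′ UTR. The same search found 1 each in the 5′ UTRs of Fth1 and Ftl1, the ferritin chains that store iron, and of Slc40a1, the iron exporter ferroportin, whose values are given further on. A match is a description of letters, and binding was not measured. The sites follow as the transcript's DNA letters, 5′ to 3′, with the loop in capitals.
Alas2, chrX:150547459-150547485, plus strand: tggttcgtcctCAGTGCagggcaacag
Tfrc, chr16:32631220-32631246, plus strand: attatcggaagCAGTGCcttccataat
Tfrc, chr16:32631599-32631625, plus strand: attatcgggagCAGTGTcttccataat
Tfrc, chr16:32631664-32631690, plus strand: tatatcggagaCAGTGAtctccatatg
Tfrc, chr16:32631711-32631737, plus strand: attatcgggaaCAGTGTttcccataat
Fth1, chr19:9982733-9982759, plus strand: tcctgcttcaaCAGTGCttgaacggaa
Ftl1, chr7:45459780-45459806, minus strand: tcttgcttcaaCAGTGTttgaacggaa
Slc40a1, chr1:45925466-45925492, minus strand: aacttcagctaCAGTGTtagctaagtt

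DM was compared with WT, which differ by design in the substitutions in the MLLT3 supplied. Mllt3 values were also mostly lower in DM (11.99 to 12.44) than in WT (12.44 to 12.87). The part of this difference in the changes below was not tested. None of the 9 genes passed the test: 0 of 9 had an adjusted p under 0.05 in limma with Benjamini-Hochberg adjustment over all 18766 genes, of which 13.9% passed (9.2% higher and 4.71% lower in DM). At an unadjusted p under 0.05 there was 1 of the 9, Cpox, against 28.9% of all genes tested. WT and DM values stood fully apart for 2 of the 9, Alad with DM above and Cpox with DM below, against 35.8% of all genes. The 9 changes ran from -0.3 to 0.16 on the log2 scale. Their median was 0.03, beside 0.01 over all genes tested, and their median absolute change was 0.103, beside 0.101. A p above the threshold does not show that a gene was at the same level in both groups, so intervals are given with each change. Of the 2611 genes called, 66.1% were higher in DM, and 51.3% of 2654 after quantile normalization.

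**Figure D1:**
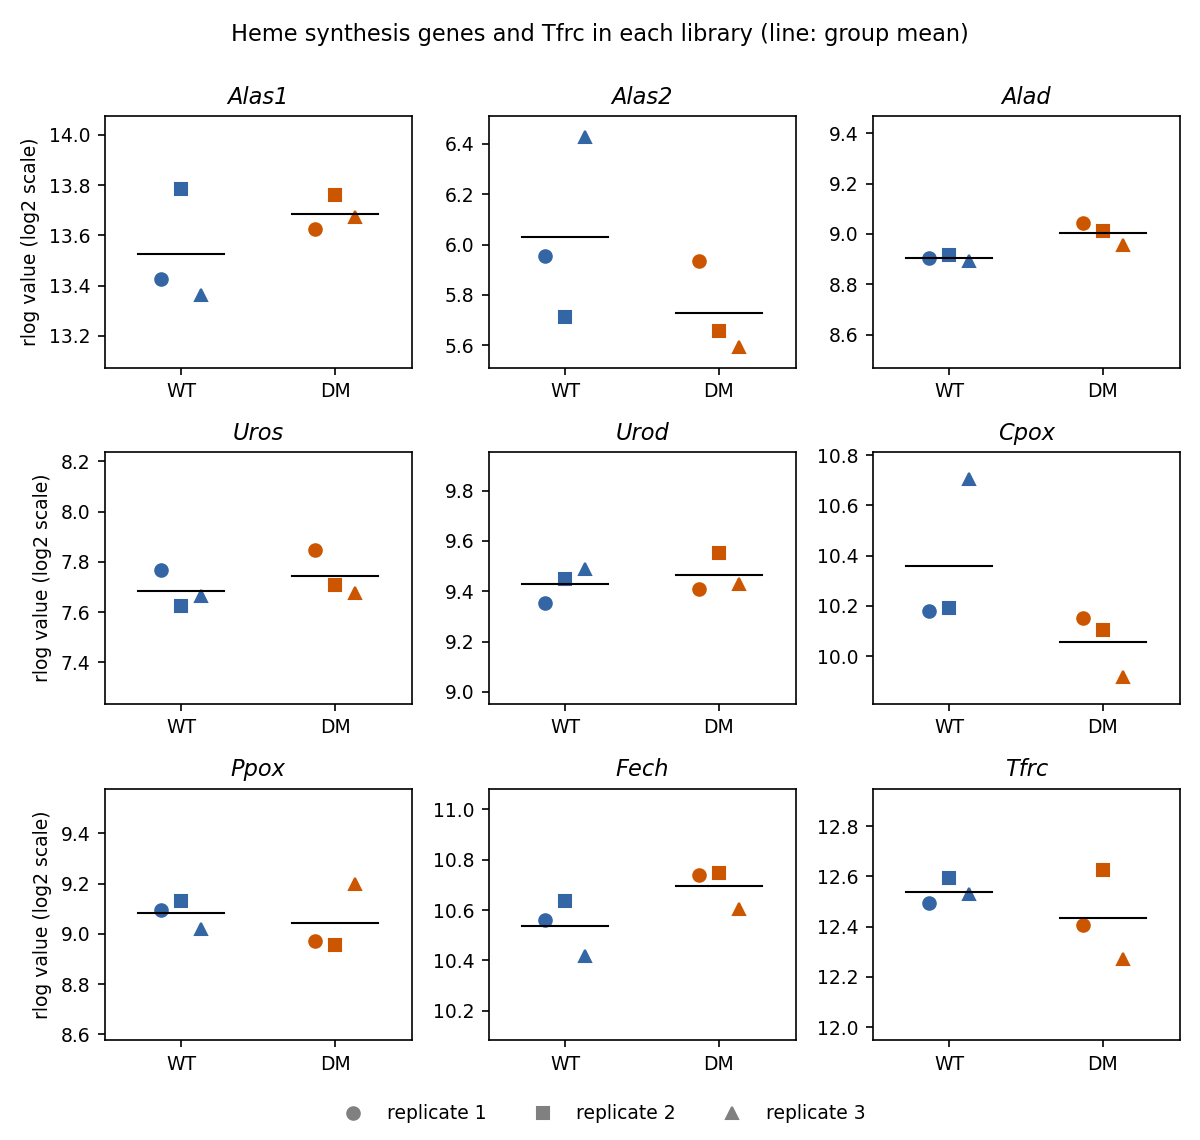
Each panel plots the rlog value (log2 scale) of a gene in the 3 WT and 3 DM libraries, with marker shapes for replicates and a line at each group mean; every axis spans the same range of log2 units. Alas2 and Cpox had their highest value in WT replicate 3, and the groups did not overlap for Alad and Cpox.

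Alas1 (ENSMUSG00000032786.16; chr9:106233455-106248654, minus strand) had rlog values, replicate by replicate, of 13.43, 13.78 and 13.36 for WT, then 13.62, 13.76 and 13.67 for DM. WT replicate 2 was the highest of all 6 libraries and the other WT libraries were the lowest, so the groups overlapped. 4930500F10Rik lies on the opposite strand at a far lower mean value, 4.24. WT averaged 13.52 ± 0.228 (SD, n = 3) and DM averaged 13.69 ± 0.0682 (SD, n = 3), so that the change, DM minus WT, was 0.16 (SE 0.111, limma adjusted p 0.357). The 95% interval ran from -0.09 to 0.41, or from 0.941-fold to 1.33-fold. Its call turned on 1 library: without WT replicate 2 its change was 0.29 and was called (adjusted p 0.0323, against 0.0323 to 0.82 over the 12 alternatives), without WT replicate 3 it was 0.08, and after quantile normalization it was -0.03.

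Alas2 (ENSMUSG00000025270.13; chrX:150547375-150570638, plus strand) had rlog values, replicate by replicate, of 5.96, 5.71 and 6.43 for WT, then 5.93, 5.66 and 5.59 for DM. WT replicate 3 stood above the other 5 libraries, by 0.59 over the mean of the other WT libraries, and those WT libraries lay within or just above the range of DM. WT averaged 6.03 ± 0.364 (SD, n = 3) and DM averaged 5.73 ± 0.181 (SD, n = 3), so that the change, DM minus WT, was -0.3 (SE 0.161, limma adjusted p 0.24, interval -0.66 to 0.06). Without WT replicate 3 the change was -0.11 (adjusted p 0.613, against 0.0613 to 0.613 over the alternatives). Its spread within groups was 4.2 times the median spread of tested genes with a mean from 3 to 6. The gene shares part of its span with Apex2 on the opposite strand, and whether strand was used in counting is not given in the sources used here, so some of its value may come from Apex2. Apex2 itself was lowest in WT replicate 3 (8.12, against 8.16 to 8.33 in the other libraries), where Alas2 was highest. The part of Apex2 in the value of Alas2 was not tested.

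Both ALAS genes could be set side by side only per length. As rlog minus log2 of the exon length in kilobases, counting every annotated exon base once, Alas1 had a level of 10.98 and Alas2 of 4.61 over the 6 libraries. The difference corresponds to a ratio of Alas1 to Alas2 of 69, 105 and 47.6 in WT and of 80.5, 107 and 105 in DM. The erythroid isozyme was thus the lower by far in every library, and nearest to the other in WT replicate 3. On the same scale the order of the 9 genes was Alas1, Tfrc (9.86), Urod (8.07), Alad (8.05), Cpox (7.47), Ppox (6.89), Fech (6.83), Uros (5.88) and Alas2. Urod and Alad, 0.02 apart, and Ppox and Fech, 0.06 apart, each kept their order in 4 of the 6 libraries, and the other neighbours kept theirs in 6 of 6. Annotated exons that these cells do not use would lower this level, and those of Fech add up to 13838 bases.

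**Figure D2:**
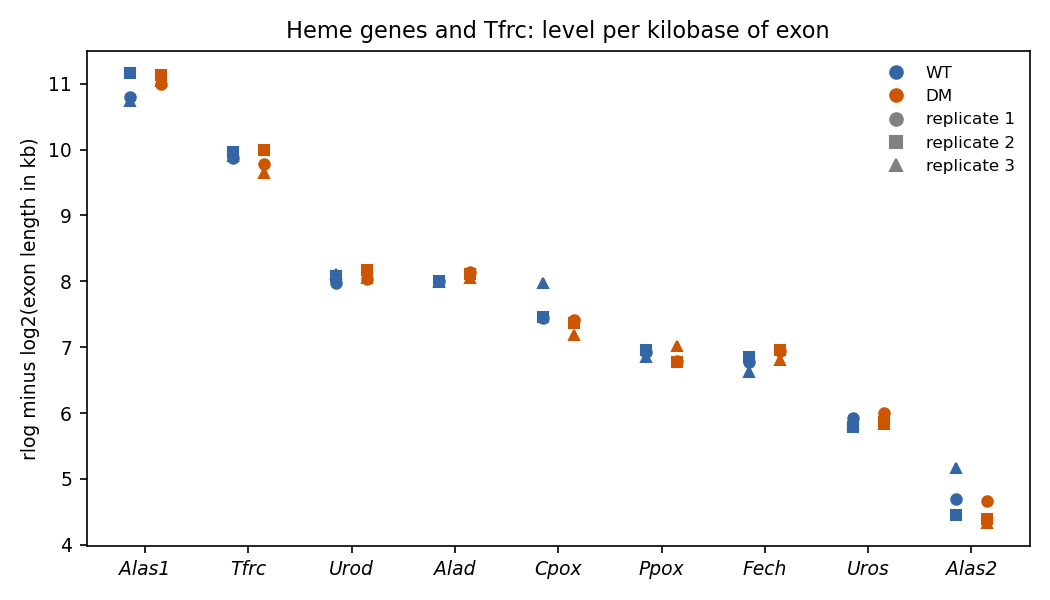
Points give each library's rlog value minus log2 of the exon length in kilobases, for the 9 genes in order of their mean, with WT at the left and DM at the right of each gene. Alas1 lies at the top and Alas2 at the bottom in both groups, while Urod with Alad and Ppox with Fech lie at nearly the same level.

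The next enzymes turn the product of ALAS into the first ring compound. Alad (ENSMUSG00000028393.10; chr4:62509169-62519918, minus strand), which encodes the enzyme that makes porphobilinogen, had rlog values, replicate by replicate, of 8.9, 8.92 and 8.89 for WT, then 9.04, 9.01 and 8.96 for DM. All 3 DM libraries were above all 3 WT libraries. The change was small, 0.1 (SE 0.0631, limma adjusted p 0.321, interval -0.04 to 0.24), and the spread within groups was 0.33 times the median of genes with a mean from 6 to 9. Uros (ENSMUSG00000030979.13; chr7:133686243-133710072, minus strand), whose enzyme closes the ring, had rlog values, replicate by replicate, of 7.77, 7.62 and 7.67 for WT, then 7.85, 7.71 and 7.67 for DM. These overlapped, and the change was 0.06 (SE 0.0761, adjusted p 0.647, interval -0.11 to 0.23). Bccip lies on the strand opposite Uros with a higher mean value, 10.16, so the value of Uros is uncertain. Both genes were highest in DM replicate 1 (10.34 for Bccip).

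Urod (ENSMUSG00000028684.14; chr4:116989965-116994413, minus strand), whose enzyme trims the side chains of the ring in the cytosol, had rlog values, replicate by replicate, of 9.35, 9.45 and 9.49 for WT, then 9.41, 9.55 and 9.43 for DM. The libraries of both groups were interleaved. Its change was 0.03 (SE 0.0712, limma adjusted p 0.776, interval -0.12 to 0.19). The sign turned without WT replicate 1 (-0.0041), without DM replicate 2 (-0.0095) and after quantile normalization (-0.04).

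Cpox (ENSMUSG00000022742.6; chr16:58670292-58717636, plus strand), which encodes the enzyme that brings the pathway back to the mitochondrion, had rlog values, replicate by replicate, of 10.18, 10.19 and 10.7 for WT, then 10.15, 10.1 and 9.92 for DM. All 3 DM libraries lay below all 3 WT libraries, but DM replicate 1 was only just below WT replicate 1, and WT replicate 3 stood apart from the other WT libraries by 0.52. WT averaged 10.36 ± 0.3 (SD, n = 3) and DM averaged 10.06 ± 0.125 (SD, n = 3), so that the change, DM minus WT, was -0.3 (SE 0.134, limma adjusted p 0.17). The interval ran from 0.66-fold to 0.998-fold. Without WT replicate 3 the change was -0.13 (adjusted p 0.376, against 0.0911 to 0.394 over the alternatives). Its spread within groups was 2.55 times the median of genes with a mean from 9 to 12. Gpr15 lies on the opposite strand at a much lower mean value, 5.62.

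Ppox (ENSMUSG00000062729.11; chr1:171275990-171281186, minus strand), whose enzyme makes protoporphyrin, had rlog values, replicate by replicate, of 9.1, 9.13 and 9.02 for WT, then 8.97, 8.96 and 9.2 for DM. DM replicate 3 was above, and the other DM libraries were below, every WT library. Its change was -0.04 (SE 0.0814, limma adjusted p 0.768, interval -0.22 to 0.14) and 0.0018 without DM replicate 2. B4galt3, on the opposite strand, had a mean value over the 6 libraries of 9.39 against 9.06 for Ppox, so the value of Ppox is uncertain. Both genes were highest in DM replicate 3 (9.52 for B4galt3).

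Fech (ENSMUSG00000024588.9; chr18:64452914-64490251, minus strand), whose enzyme inserts the iron, had rlog values, replicate by replicate, of 10.56, 10.64 and 10.42 for WT, then 10.74, 10.75 and 10.6 for DM. The groups overlapped only in that DM replicate 3 was below WT replicate 2. WT averaged 10.54 ± 0.111 (SD, n = 3) and DM averaged 10.7 ± 0.0813 (SD, n = 3), so that the change, DM minus WT, was 0.16 (SE 0.0783, limma adjusted p 0.21, interval -0.02 to 0.33). After quantile normalization the change was 0.06. Cpox and Fech, both mitochondrial, thus had changes of opposite sign, neither of them past the threshold.

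Tfrc (ENSMUSG00000022797.16; chr16:32608920-32632794, plus strand) had rlog values, replicate by replicate, of 12.49, 12.59 and 12.53 for WT, then 12.41, 12.63 and 12.27 for DM. WT libraries were within 0.099 of each other, while DM replicate 2 was the highest and DM replicate 3 the lowest of all 6. WT averaged 12.54 ± 0.05 (SD, n = 3) and DM averaged 12.43 ± 0.18 (SD, n = 3), so that the change, DM minus WT, was -0.1 (SE 0.0936, limma adjusted p 0.485). The interval ran from 0.805-fold to 1.08-fold. The change was -0.2 without DM replicate 2, -0.02 without DM replicate 3 and -0.23 after quantile normalization (adjusted p 0.0967, against 0.0967 to 0.91 over the alternatives). Dividing cells raise this receptor, and 12 of 15 tested proliferation genes were called lower in DM and 0 higher, against 4.71% and 9.2% of all genes, with a median change of -0.42. Among them Mki67 changed by -0.4 (adjusted p 0.0196). The level of that list, the mean over genes of the rlog value minus the gene's 6-library mean, was between 0.1 and 0.27 in WT and between -0.28 and -0.11 in DM. The part of proliferation in the level of Tfrc was not tested.

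**Figure D3:**
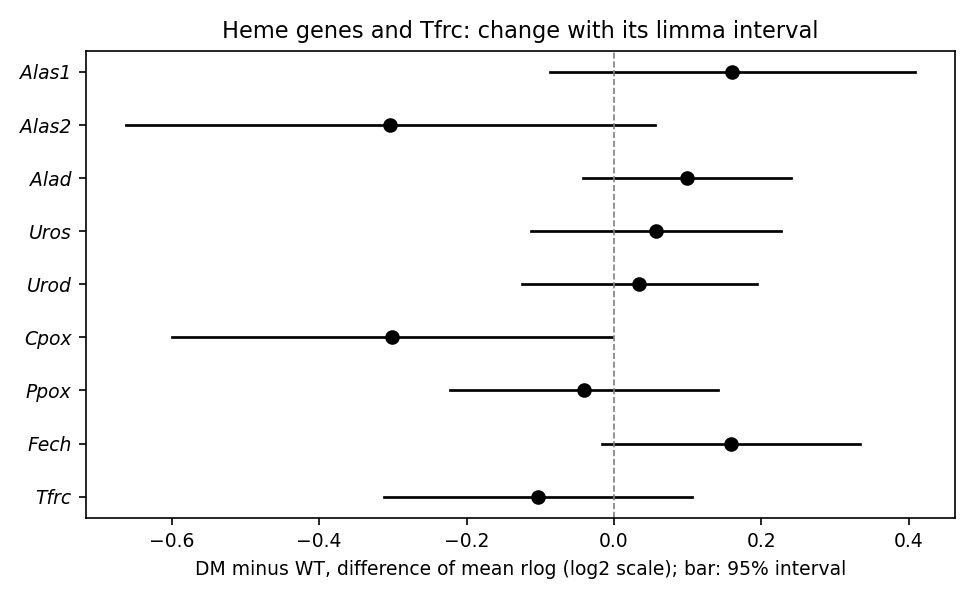
Points are the differences of mean rlog values (DM minus WT, log2 scale) of the 9 genes and bars their 95% intervals from limma. Intervals for 8 of the 9 genes hold 0; that of Cpox ends just below 0, and its adjusted p was 0.17.

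Alas2 and Cpox shared more than their size of change. Among 11977 other genes with a symbol and a mean of at least 6, the gene whose profile over the 6 libraries was nearest to that of Alas2 was Cpox, with a root mean square difference of 0.1 between the centred values, against 0.28 for Alas2 about its own mean. Next came Hspg2 (0.11) and Cacna1a (0.11). The same measure put Sting1 (0.03), Fam102b (0.03) and Gramd3 (0.04) nearest to Alas1 and Mcam (0.04), Etfb (0.05) and Clp1 (0.05) nearest to Tfrc, none of them called. These profiles rest on 6 libraries and are a description.

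The library that carried both genes was also the one with the highest erythroid markers. Of 22 tested markers of red cell precursors, 19 had their highest value in WT replicate 3, against 24.8% of all genes tested, and the exceptions were Gata1, Tal1 and Bpgm. Averaged over the markers, the level less its 6-library mean came to -0.03, -0.12 and 0.47 in WT and -0.03, 0.00 and -0.29 in DM. Klf1, an erythroid transcription factor, was at 6.04, 5.95 and 6.8 in WT and at 5.94, 6.08 and 5.84 in DM. The beta-globin gene Hbb-bs was at 6.04, 5.87 and 6.54 for WT, then at 5.96, 6.07 and 5.69 for DM. The embryonic globin gene Hbb-bh1 was listed at 0 in all 6 libraries, and Hba-a1 and Hba-a2 were below the level for testing (means of -1.97 and 0.37). As the counting tool is not given, it is unknown how reads shared by like genes were counted. The low values of Hba-a1 and Hba-a2 therefore do not show that alpha-globin RNA was absent. Of the 22 markers 0 were called higher and 1 lower, Nfe2 (-0.58, limma adjusted p 0.00361), a share near the 4.71% of all genes called lower. Gata1 had a change of 0.1 (adjusted p 0.572). The median change of the markers was -0.21, and -0.03 without WT replicate 3, where 0 of the 9 heme and iron genes were called. In bulk RNA, fewer cells of a type and less RNA per cell cannot be told apart, and the part of erythroid cells in the values of Alas2 and Cpox was not tested. Alas1, Tfrc, Fech and Alad were not highest in WT replicate 3, and Alas1, Fech and Alad had their lowest value there.

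**Figure D4:**
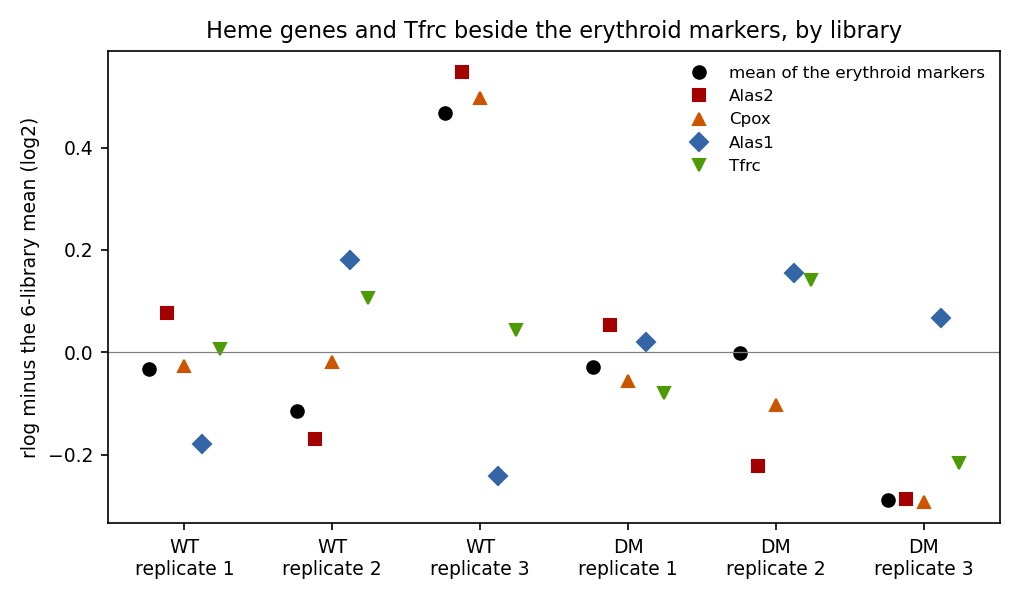
For each of the 6 libraries, points give the rlog value minus the 6-library mean (log2) of Alas2, Cpox, Alas1 and Tfrc and, in black, the mean of the 22 tested erythroid markers. In WT replicate 3 Alas2, Cpox and the markers (0.47) were at their highest and Alas1 was at its lowest.

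The upstream sequences of Alas2 and Cpox are shown because these genes followed each other across the libraries. RefSeq promoter windows on GRCm38.p6, from 250 bases before to 50 after the gene's start, were given for 8 of the 9 genes, Fech being the exception. Searched on both strands for the GATA motifs AGATAA and TGATAA, which do not overlap each other, windows of Alas2, Cpox and Uros held one, as did 18.6% of all 32851 windows. In Alas2 an AGATAA match on the reverse strand began 86 bases before the start. In Cpox a TGATAA match on the reverse strand began 86 bases before the start, and an AGATAA match on the reverse strand began at base 5 after it. The CACCC box CCACACCC, bound by KLF factors and held by 3.56% of windows, was in no window of these genes. Capitals mark the match before the start of each gene, as read on the plus strand; the stretch printed for Cpox ends before its other match.
Alas2, chrX:150547267-150547372, plus strand: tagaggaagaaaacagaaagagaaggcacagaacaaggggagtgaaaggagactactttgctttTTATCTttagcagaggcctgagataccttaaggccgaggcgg
Cpox, chr16:58670078-58670207, plus strand: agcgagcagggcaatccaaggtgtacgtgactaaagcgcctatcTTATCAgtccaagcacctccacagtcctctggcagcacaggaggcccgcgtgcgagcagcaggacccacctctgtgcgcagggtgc

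Windows of Alas1, Alad, Urod, Ppox and Tfrc held no GATA match, the usual case, as 18.6% of all windows held one. Uros, which held one, was highest in DM replicate 1, while Alas2 and Cpox were highest in WT replicate 3. The 2 windows of Alas1 overlap, and both held the same site with the motif of NRF1, a factor of mitochondrial genes. The motif's letters are the capitals in the Alas1 line and read the same on both strands. Of all windows, 0.971% held this motif. The windows of Tfrc also overlap, and both held the same site with the letters TACGTG of hypoxia response elements (3.23% of windows). Cpox held these letters in its window. The E-box CACGTG (7.15%), which differs from TACGTG in the first letter, was in windows of Alad, Urod and Uros. A match shows neither binding nor control. The NRF1 match of Alas1 is printed with its flanks, in capitals.
Alas1, chr9:106247906-106247935, minus strand: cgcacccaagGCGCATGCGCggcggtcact

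Genes that work beside the enzymes were taken from lists. Of 17 tested partners of heme synthesis, 0 were called in either direction. These partners include the glycine carrier Slc25a38, the iron carrier Slc25a37 and the transporter Abcb10. At an unadjusted limma p under 0.05 there were 4 of the 17, against 28.9% of all genes tested. The median change of the 17 was 0.04. Of 18 genes of iron-sulfur cluster assembly, the other main use of mitochondrial iron, 1 was called, the scaffold Iscu (0.24, adjusted p 0.0347), and it lost the call in 7 of 12 alternatives, among them leaving out any 1 library but WT replicate 2 (0.22 to 0.25). For both lists the background was 9.2% called higher and 4.71% called lower.

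Another list held genes that take heme apart or move it, with the transcription regulators Bach1 and Nfe2l2. Of its 12 tested genes, 10 were called higher and 0 lower, with a median change of 0.42, beside 9.2% and 4.71% called and a median of 0.01 over all genes. The 10 included Nfe2l2 (0.34, limma adjusted p 0.032) and Bach1 (0.31, adjusted p 0.033), which neither break down nor carry heme. The count was 5 without WT replicate 1 and 5 without DM replicate 2. Hmox1, the heme oxygenase that opens the ring, stood at 11.51, 12.08 and 11.65 for WT, then at 12.37, 12.65 and 12.27 for DM, which differed by 0.69 (SE 0.145, limma adjusted p 0.0141). All DM libraries were above all WT libraries. Leaving out WT replicate 1 gave 0.57 (adjusted p 0.0519) and leaving out DM replicate 2 gave 0.58 (0.0545), against 0.000593 to 0.0545 over the alternatives. Blvrb, a biliverdin reductase, rose by 0.57 (SE 0.0732, adjusted p 0.00219), Flvcr2, a transporter of the FLVCR family, by 0.7 (SE 0.145, adjusted p 0.0127) and Lrp1, a receptor for heme bound to hemopexin, by 0.9 (SE 0.161, adjusted p 0.00797), and these 3 kept the call in all 12 alternatives. The members not called were Abcg2 and Cd163.

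Iron handling genes other than Tfrc were called in both directions, 7 of 24 higher and 3 lower, against 9.2% and 4.71% of all genes. The count of higher genes was 3 without WT replicate 1, without DM replicate 2 or without DM replicate 3, and 4 without WT replicate 3. The ferritin genes, whose hairpins are printed above, were both called. Ftl1, the light chain, stood at 16.05, 16.3 and 16.1 for WT, then at 16.72, 17.01 and 16.68 for DM, which differed by 0.65 (SE 0.123, limma adjusted p 0.00944). Fth1, the heavy chain, changed by 0.69 (SE 0.157, adjusted p 0.0189) but was not called after quantile normalization (0.3) or without WT replicate 1 (0.66), WT replicate 3 (0.57), DM replicate 2 (0.64) or DM replicate 3 (0.7), with adjusted p values from 0.00124 to 0.127 over the alternatives. Both have many near-identical copies in the genome, so these values are uncertain. Tfrc, with hairpins in its 3′ UTR, and Alas2, with one in its 5′ UTR, were not called, and neither was Slc40a1 (-0.41, adjusted p 0.0521), which did pass in 5 of 12 alternatives, among them without DM replicate 2 (-0.53, adjusted p 0.0292, against 0.00321 to 0.147 over the alternatives). Among the genes that fell were the second transferrin receptor Tfr2 (-0.54, adjusted p 0.0163) and the metal carrier Slc39a8 (-0.38, adjusted p 0.0114). Tfr2 was not called without DM replicate 3 (-0.49, adjusted p 0.0633, against 0.0084 to 0.0633). Slc11a2, which carries iron out of the endosome that the transferrin receptor brings in, was chosen for that role after its value was seen, and it rose by 0.47 (SE 0.0808, adjusted p 0.00697).

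**Figure D5:**
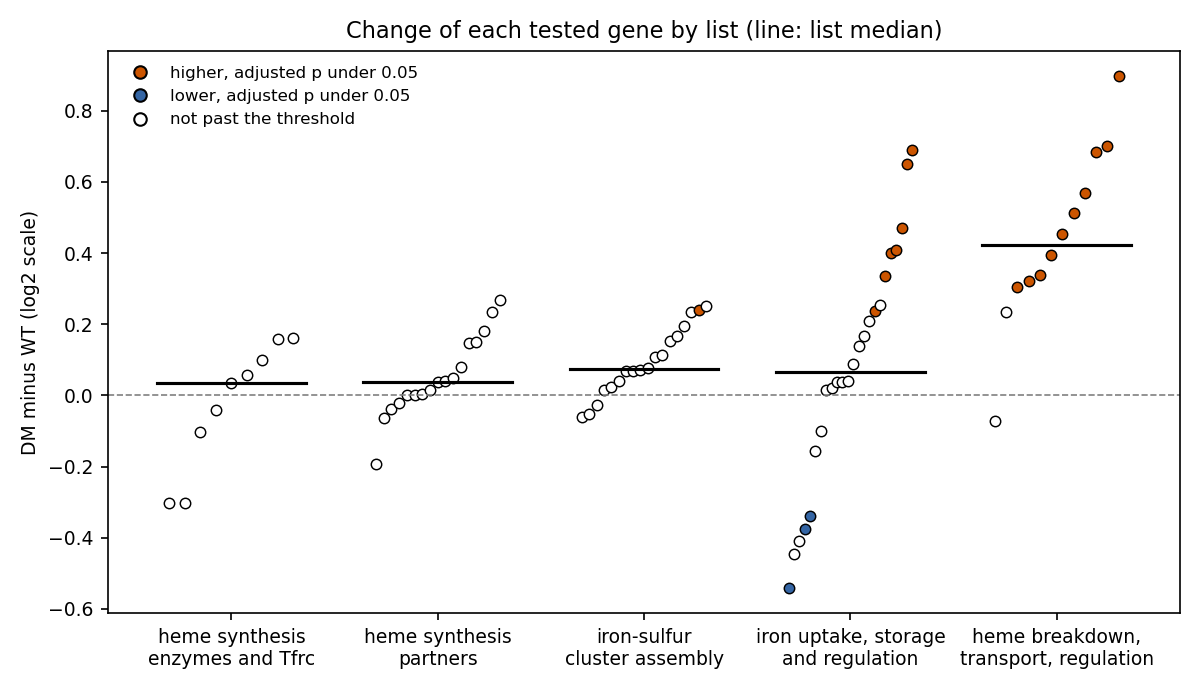
Each point is the change of a tested gene (DM minus WT, log2 scale) in the list named on the horizontal axis, coloured where the adjusted p was under 0.05, with a line at the list's median. No heme synthesis gene, Tfrc included, is coloured, while 10 of 12 genes of heme breakdown, transport and regulation are coloured as higher.

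Markers of other cells were counted as well, against 9.2% called higher and 4.71% called lower over all genes tested. Of 11 tested markers of monocytes and macrophages, cells that recycle heme, 7 were called higher and 2 lower, with a list level from -0.33 to 0.05 in WT and from 0.03 to 0.27 in DM. Csf1r, the receptor that defines the lineage, rose by 0.73, as did Ctss (0.96) and Gpnmb (0.96), while Ly6c2 (-1.13) and Ccr2 (-0.78), of circulating monocytes, fell. The level of the list of heme breakdown, transport and regulation was from -0.3 to -0.08 in WT and from 0.14 to 0.35 in DM. In both lists WT replicate 2 was the highest WT library and DM replicate 2 the highest of all. This order was not particular to them. It also held for heme synthesis partners (0.006 and 0.045), iron handling (0.05 and 0.07) and iron-sulfur assembly (-0.01 and 0.07). Of the complement genes of macrophages on the list, C1qa was below the level for testing, and C1qb and C1qc were near it, with mean values of 3.04 and 3.6 and changes of -0.05 and -0.09 that were not called. None of the list was listed at 0. Of 13 neutrophil markers, 12 were called lower and 0 higher, with a list level from 0.93 to 1.12 in WT and from -1.26 to -0.66 in DM. Of 9 mast cell and basophil markers 0 were called higher and 1 lower, Hdc (-0.62, limma adjusted p 0.0457), and the list's median change was 0.07. Hdc lost its call in 7 of 12 alternatives, among them leaving out WT replicate 2 (-0.67), WT replicate 3 (-0.45), DM replicate 2 (-0.43) or DM replicate 3 (-0.67). Of 7 megakaryocyte markers 2 were called higher, Vwf (0.54), which kept its call in 12 of 12 alternatives, and Gp1ba (0.55), which lost it after quantile normalization (0.45) and without DM replicate 2 (0.53, adjusted p 0.0625, against 0.00878 to 0.0625 over the alternatives). The part of these cells in the values of the heme and iron genes was not tested.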

How the data were processed

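RNA-seq of 6 libraries (3 WT, 3 DM) was read from 1 deposited table of rlog values on the log2 scale. That the authors used this transform is read from the table's name and values. The submitters' processing notes name the genome build mm10, cutadapt 2.6, STAR 2.7.3 and DESeq2 1.30.0, without roles. The counting tool, the annotation and the use of strand are not given in the sources used here. Identical lines (142699) were merged to 55487 genes.

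Means were compared with limma 3.58.1 (lmFit, then eBayes with trend) under R 4.3.3, with no covariates, over genes with a mean of at least 3, with Benjamini-Hochberg adjustment and a threshold of 0.05, after the script had been tested on simulated data. Coordinates and exon lengths are from GENCODE M21 on GRCm38, the assembly of mm10, and 98.1% of gene identifiers matched. Promoter sequences are RefSeq's on GRCm38.p6. As depth is unknown, counting error was not estimated.

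The genes and lists were chosen with earlier results of these data known. Genes named from lists were up to 4 called genes with the largest change, at most 2 in each direction where both occurred, besides defining markers. Slc11a2 (called) and uncalled list genes such as Slc40a1 were named after their values were seen. Some genes of these lists are not reported here. Nearest profiles were sought among genes with a symbol and a mean of at least 6. The 12 alternatives were no filter, a mean of at least 5, no trend, quantile normalization, median centring, a replicate block, and leaving out 1 of the 6 libraries at a time. Plots were made with matplotlib 3.10.9.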

Additional observations from a re-analysis of the deposited data

How the results depend on the processing

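Of the 9 genes, 0 were called in 11 of 12 alternatives, and from 0 to 1 when libraries were left out. Changes were of the other sign for Alas1 (-0.0316) and Urod (-0.0405) after quantile normalization, and with libraries left out they ran from -0.0095 to 0.0635 for Urod, -0.119 to 0.0018 for Ppox and -0.0191 to 0.165 for Gata1. The count over all genes ran from 1119 to 3475 with libraries left out. List counts called higher then ran from 3 to 8 for iron handling, 0 to 3 for iron-sulfur assembly, 5 to 10 for heme breakdown, transport and regulation, 2 to 8 for heme proteins and 1 to 2 for megakaryocyte markers, and those called lower from 0 to 1 for heme synthesis partners, 1 to 2 for erythroid and 0 to 2 for mast cell markers. With a mean of at least 5, 1 partner and 2 iron-sulfur genes were called higher. Iron-sulfur calls fell to 0 without the filter and after quantile normalization, which left 1 megakaryocyte marker, and mast cell calls to 0 without the filter, without the trend and after centring. The cause was not tested.

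Same-numbered libraries had deviations from their group means that correlated by 0.491, 0.116 and 0.0412, so the numbers were not taken as pairs, and not every library correlated best with its own number. With the replicate block 3742 genes were called against 2611, 0 of them among the 9, with 2 partners, 3 iron-sulfur genes, 1 erythroid and 1 mast cell marker called higher and 5 iron handling genes lower. Depth is unknown, and the shrinkage of low values was not measured for single genes.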

Other observations

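Genes of proteins that carry or serve heme were called in both directions, 7 of 16 higher and 3 lower in DM, against 9.2% and 4.71% of all genes. Mpo and Epx, the heme peroxidases of neutrophil and eosinophil granules, had changes of -4.23 (SE 0.409, limma adjusted p 0.000444) and -1.46 (SE 0.109, adjusted p 0.000118). Mpo also stands on the list of neutrophil markers, of which 12 of 13 were called lower, and the part of neutrophils in its change was not tested. Cyb5a, which encodes cytochrome b5, rose by 0.55 (SE 0.088, adjusted p 0.00557), and Hebp1, a heme-binding protein, by 0.81 (SE 0.182, adjusted p 0.0171). Hebp1 was not called without WT replicate 1 (0.76) or without DM replicate 2 (0.64), and the list then held 2 higher genes. The third called lower was Ncf1, a subunit of the phagocyte oxidase that carries no heme itself, named after its value was seen (-0.42, adjusted p 0.0183).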
